A study of Mus musculus with 56 samples.

Results

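Acute-phase proteins are plasma proteins whose synthesis in hepatocytes changes during inflammation, and 10 genes that encode such proteins were followed in the livers of 56 mice. They were the serum amyloid A genes Saa1, Saa2, Saa3 and Saa4, the orosomucoid genes Orm1 and Orm2, the haptoglobin gene Hp, the haemopexin gene Hpx, the lipocalin 2 gene Lcn2 and the serpin gene Serpina3n. Their symbols were matched to the Ensembl identifiers of the deposited counts with GENCODE vM21, and all 10 were found among the 45513 genes counted. In the course of an acute-phase response, interleukin-6 acts on hepatocytes through its receptor, JAK kinases and the transcription factor STAT3, while interleukin-1 and tumour necrosis factor act through NF-kappa-B and C/EBP factors. The mRNAs of Saa1 and Saa2 are known for a very large range between rest and inflammation, whereas haptoglobin and haemopexin are abundant at rest and rise less steeply.

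The mice were females that carry human APOE*3-Leiden, APOC1 and CETP genes, a model with a human-like lipoprotein profile, aged 9 to 14 weeks when they entered the study. All 7 groups of 8 mice ate a Western-type diet with 15% cacao butter and 0.15% cholesterol. The published methods give 16 weeks of treatment for the control and drug groups and do not describe the L-NAME group. The same length is assumed here for L-NAME. Control mice received the vehicle, carboxymethyl cellulose. Imatinib was given at 150 mg/kg by 2 gavages per day, nilotinib at 10 or 30 mg/kg and ponatinib at 3 or 10 mg/kg by 1 gavage per day with a second gavage of vehicle, and these 3 drugs inhibit the ABL tyrosine kinase used as a target in chronic myeloid leukaemia. The last group drank L-NAME, an inhibitor of nitric oxide synthases, at 0.12 to 0.20% in water, together with the vehicle gavage. Mice are numbered 1 to 8 within each group below, and the numbers serve only as names.

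Liver mRNA was sequenced, and the number of reads assigned to genes ran from 5342379 to 97473341 per mouse. Levels are given in CPM, the usual depth-scaled count (counts per library size, here after TMM scaling). The hepatocyte markers were strongly expressed in every library, with a summed level of 66972 to 148368 CPM, so that the labelled tissue was borne out by its markers. The defining markers of adipocytes were near 0, with Adipoq at 0 in 52 of 56 mice and Plin1 at 0 in 54. Fabp4, also on the adipocyte list, was found in every mouse, at a median of 10.5 CPM. The neutrophil genes were low, with Ly6g at 0 in 52 mice and Mpo at 0 in 47. Others of that list were found in most mice, with S100a8 at 0 in 10, S100a9 at 0 in 9 and Csf3r at 0 in 2. Csf3r had a median of 7.44 CPM. In whole liver, fewer cells of a type and less RNA per cell cannot be told apart.

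The serum amyloid A genes lie next to each other on mouse chromosome 7. Promoter sequences of 300 bases, from 250 bases before to 50 bases after the start site, were found in RefSeq (GRCm38.p6) for 8 of the 10 genes. Those of Saa1 and Saa2, the members with the widest range, and of their neighbours Saa3 and Saa4 are shown from 5′ to 3′ on the strand of each gene, and capitals mark matches to the C/EBP motif TTGCNNAA on either strand. They lie at chr7:46742931-46743230 on the minus strand for Saa1, at chr7:46751583-46751882 on the plus strand for Saa2, and on the minus strand at chr7:46715627-46715926 for Saa3 and chr7:46732554-46732853 for Saa4.
Saa1: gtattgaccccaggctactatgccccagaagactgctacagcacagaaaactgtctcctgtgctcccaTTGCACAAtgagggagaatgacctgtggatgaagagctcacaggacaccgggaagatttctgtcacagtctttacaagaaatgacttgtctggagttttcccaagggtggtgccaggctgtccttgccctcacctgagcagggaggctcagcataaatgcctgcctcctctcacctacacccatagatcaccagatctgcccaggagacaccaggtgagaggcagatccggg
Saa2: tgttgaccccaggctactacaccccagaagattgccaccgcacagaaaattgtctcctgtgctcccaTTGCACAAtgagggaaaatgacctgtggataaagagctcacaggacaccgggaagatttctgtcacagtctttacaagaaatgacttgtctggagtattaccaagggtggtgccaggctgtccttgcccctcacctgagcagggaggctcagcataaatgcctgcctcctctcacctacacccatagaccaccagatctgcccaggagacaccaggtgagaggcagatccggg
Saa3: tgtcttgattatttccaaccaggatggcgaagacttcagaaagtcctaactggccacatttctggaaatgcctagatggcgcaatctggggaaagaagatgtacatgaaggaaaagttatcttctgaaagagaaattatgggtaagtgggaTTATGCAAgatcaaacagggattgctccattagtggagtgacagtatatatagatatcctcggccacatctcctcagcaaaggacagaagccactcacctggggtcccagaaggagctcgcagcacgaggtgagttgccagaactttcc
Saa4: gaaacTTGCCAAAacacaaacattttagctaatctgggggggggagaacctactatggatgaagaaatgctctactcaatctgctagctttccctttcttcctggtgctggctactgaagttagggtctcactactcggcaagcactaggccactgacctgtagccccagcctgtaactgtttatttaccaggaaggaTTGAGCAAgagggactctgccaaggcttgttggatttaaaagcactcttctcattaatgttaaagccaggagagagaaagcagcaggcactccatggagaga
The windows of Saa1 and Saa2 were identical at 95.3% of 301 aligned positions, and both held the C/EBP motif, ending 175 bases before the start site in Saa1 and 176 bases before it in Saa2. Saa1 and Saa3 were identical at 54.2% and Saa1 and Saa4 at 50.7% of aligned positions. The C/EBP motif was found in 7 of the 8 windows searched (Serpina3n had none) and in 10.8% of the 32851 promoters of this length. The STAT3 motif TTCNNNGAA was found in 0 of 8 windows against 8.3% of all promoters, and the NF-kappa-B consensus in 0 of 8 against 8.46%. A match is only a run of letters, and a window without one shows only that these letters are not in these 300 bases.

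In control livers haemopexin and haptoglobin, the plasma carriers of free haem and free haemoglobin, were the most abundant of the 10 per length of transcript. The median over 8 control mice was 3920 CPM per kilobase for Hpx and 2637 for Hp. Orm1, which encodes a lipid- and drug-binding plasma glycoprotein, followed at 491, Serpina3n, a serine protease inhibitor, at 179 and Saa1, an apolipoprotein of high-density lipoprotein in inflammation, at 168 CPM per kilobase. Saa2, Saa4, Lcn2, Orm2 and Saa3 had medians of 95.6, 87.2, 79.9, 48.2 and 32.0 CPM per kilobase in the same mice. The control ranges of Hpx and Hp overlapped, as did those of each pair of neighbours in the order from Serpina3n down to Saa3. The order of such neighbours is not resolved by this spread. Reads that aligned to several places were not counted, which bears on the close copies. Of the 50-base windows of the principal transcript, 14.8% of those of Saa1 also occur in Saa2 or Saa3, 9.12% of those of Saa2 occur in Saa1, and 20.4% of those of Orm1 and 22.7% of those of Orm2 occur in other orosomucoid transcripts. The share was 6.9% for Serpina3n, 1.78% for Saa3, 1.08% for Saa4 and 0 for Hp, Hpx and Lcn2, so the counts of the Saa1, Saa2, Orm1, Orm2 and Serpina3n genes carry the larger uncertainty.

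**Figure D1:**
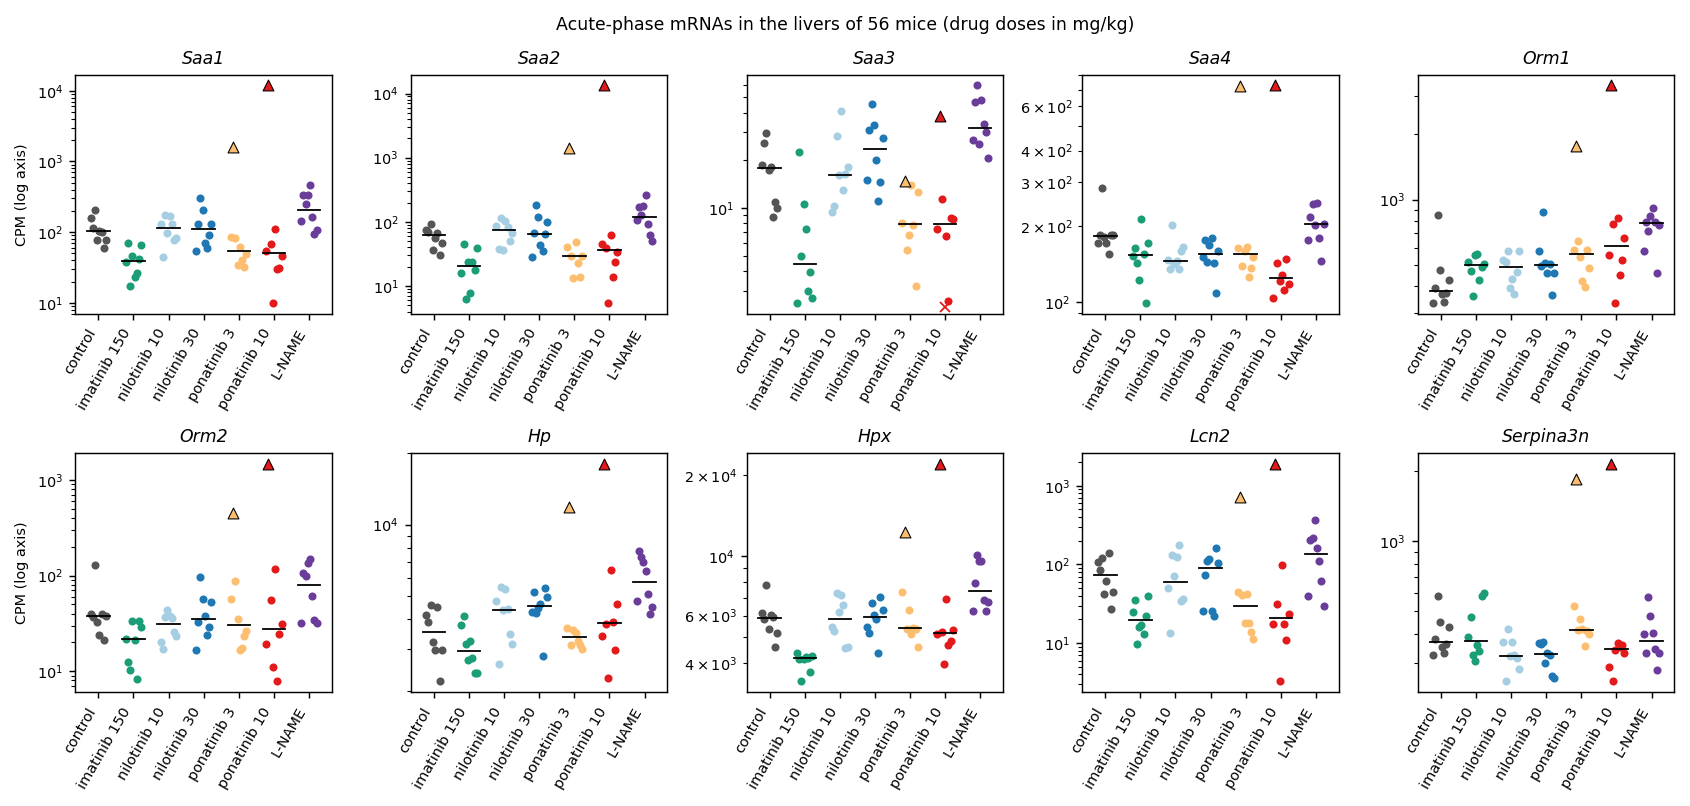
Level of each of the 10 genes in every mouse (CPM, log axis) by treatment group, with a bar at the group median. Triangles mark mouse 2 of each ponatinib group, which lies above the other mice of its group for all 10 genes, and a cross at the foot of the Saa3 panel marks the ponatinib 10 mg/kg mouse with a count of 0.

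A pair of mice stood apart from all others. Mouse 2 of the ponatinib 10 mg/kg group and mouse 2 of the ponatinib 3 mg/kg group had the highest level of their group in 10 of 10 genes. They were picked for their Saa1, so the place of that gene follows from the choice. The share of all genes that were highest in both mice was not determined, here or for the lists below. Saa1 reached 11884 CPM in the first and 1591 CPM in the second, against 9.94 to 110.6 CPM in the other 7 mice at 10 mg/kg and 32.4 to 84.8 CPM in the other 7 at 3 mg/kg. Saa2 reached 13377 and 1404 CPM, which is 392 and 48.1 times the median of the other 7 mice of the group. Saa2 had 1.13 reads for each Saa1 read in the 10 mg/kg mouse and 0.882 in the 3 mg/kg mouse, with 0.341 to 0.896 and a median of 0.584 in the other 54 mice.

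The size of the rise in these mice differed widely between the genes. Lcn2, whose protein binds bacterial siderophores, was at 1906 and 724 CPM, or 108 and 40.2 times the median of the other 7 mice. Orm2 was at 1474 and 448 CPM, or 59.6 and 17.2 times that median. Orm1, at 3356 and 1771 CPM, was 6.05 and 3.27 times its median, and Serpina3n, at 2142 and 1835 CPM, was 6.28 and 4.4 times. Haptoglobin mRNA was at 18030 and 11834 CPM and haemopexin mRNA at 22079 and 12265 CPM, between 2.29 and 4.69 times the medians. Saa4, the serum amyloid A form that is made constitutively, was alike in both mice at 727 and 726 CPM, against 104 to 165 CPM in the other 14 ponatinib mice. Saa3, which macrophages also express, was at 38.2 CPM in the 10 mg/kg mouse, while the 14.7 CPM of the 3 mg/kg mouse was close to the next highest value of its group, 14.0 CPM.

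The same mice were highest of their group in 16 of 21 other positive acute-phase genes. Lrg1, which encodes a leucine-rich glycoprotein of plasma, was at 3311 CPM in the 10 mg/kg mouse against at most 714.9 CPM in the others, and at 2128 against at most 387.5 CPM at 3 mg/kg. Apcs, which encodes serum amyloid P, was at 1259 and 667 CPM, against at most 246 and 188 CPM in the others. The fibrinogen chains Fga, Fgb and Fgg were each highest in both mice, at 9530 to 14476 CPM. Of the other 5, Hamp2 was lowest of the group in both mice at 53.5 and 177 CPM, Hamp and A2m lay within the range of the others in both, and Cfb and Cd14 did so in the 3 mg/kg mouse. Among 12 negative acute-phase genes, Alb, the albumin gene, was at 44041 CPM in the 10 mg/kg mouse against at least 85584 CPM in the other 7, but lay within the range of its group in the 3 mg/kg mouse. Trf, the transferrin gene, was highest of the group in both.

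**Figure D2:**
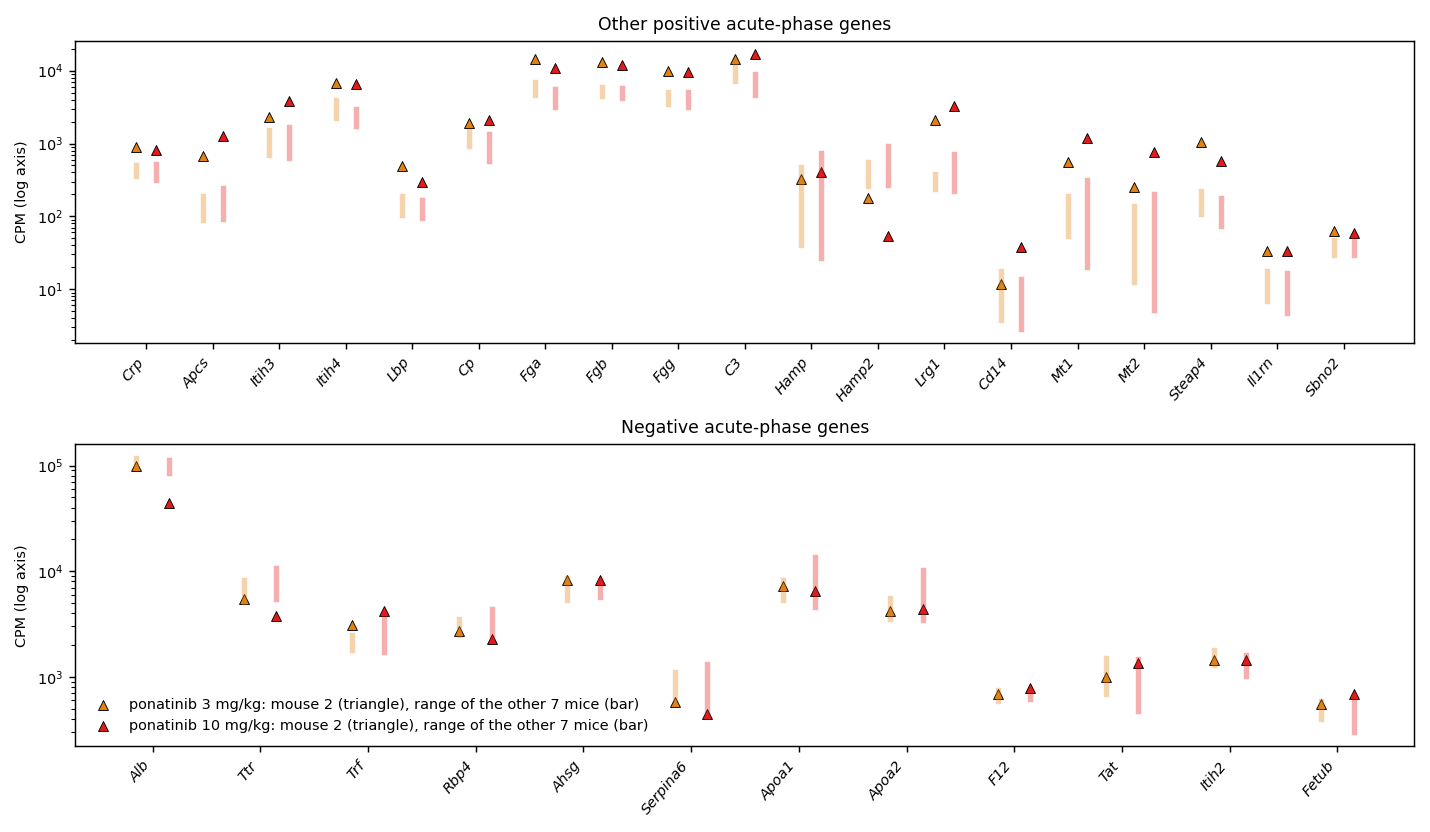
Level (CPM, log axis) of the 19 other positive and 12 negative acute-phase genes that were above 0 in every ponatinib mouse. Triangles show mouse 2 of each ponatinib group and bars the range of the other 7 mice, and the triangles lie above the bars for most positive genes and for Trf.

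Of the signalling genes, 3 of 14 of the interleukin-6 and JAK-STAT list, 3 of 10 of the interleukin-1 and TNF list and 2 of 8 transcription factor genes were highest of the group in both mice, and Il1rap of the second list was lowest in both. Whether these counts differ from the share of all genes was not tested. Socs3, which encodes the feedback inhibitor of interleukin-6 signalling and is a STAT3 target, was at 148 and 132 CPM, against at most 25.6 and 38.1 CPM in the other mice of the groups. Il1r1, the interleukin-1 receptor gene, was at 197 and 138 CPM against at most 58.2 and 62.9 CPM. Stat3 itself was at 180 and 254 CPM against at most 152 and 216 CPM, and Cebpb, a C/EBP factor gene, at 53.8 and 25.1 CPM against at most 36.2 and 23.8 CPM. Of the cytokine mRNAs, Il6 was at 0 in the 10 mg/kg mouse and at 0.556 CPM in the 3 mg/kg mouse, and Il1b was at 6.59 and 6.25 CPM, both below the highest other mouse of the group. Summed neutrophil markers were 36.2 CPM in the 10 mg/kg mouse and 22.9 CPM in the 3 mg/kg mouse, each within the range of its group, whose highest mice had 52.3 and 43.6 CPM. Summed Kupffer cell and macrophage markers were 1723 and 1277 CPM, within the group ranges of 393 to 2201 and 614 to 1711 CPM. Of 5 hepatic stellate cell markers, 4 were lowest of the group in the 10 mg/kg mouse and 3 in the 3 mg/kg mouse, and their sums, 116 and 231 CPM, were the lowest of groups that reached 406 and 395 CPM. Summed endothelial cell markers were also lowest in these mice, at 71.3 and 74.0 CPM, with 1 and 3 of the 4 genes lowest. Summed monocyte markers, which include Fn1, a gene that hepatocytes express too, were highest in these mice at 2436 and 2778 CPM, with 3 and 1 of the 4 genes highest. This sum is almost all Fn1, whose median over all mice was 1526 CPM. Ly6c2, Ccr2 and Chil3 had medians of 1.88, 4.45 and 0.258 CPM, so the sum does not measure monocytes. Their share of reads outside annotated genes was 8.89% and 7.78%, the lowest of each group, and the part of these shares and markers in the levels of the 10 genes was not tested.

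**Figure D3:**
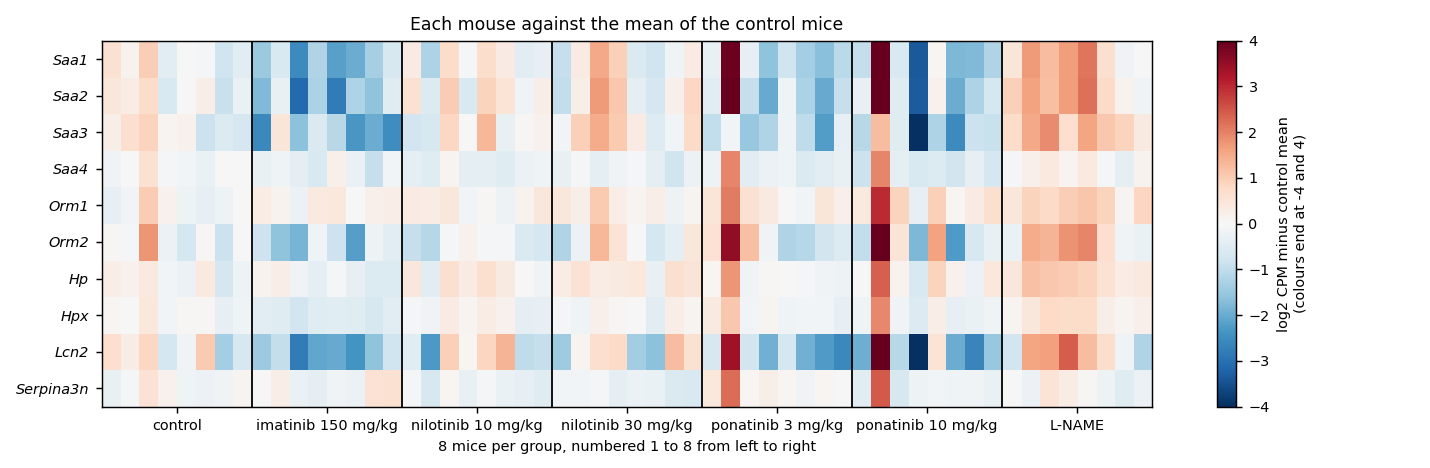
Difference of each mouse from the mean of the control mice (log2 CPM, colours end at -4 and 4) for the 10 genes. The ponatinib columns of mouse 2 are dark red for Saa1, Saa2, Orm2 and Lcn2, the imatinib block is mostly blue for Saa1, Saa2, Saa3 and Lcn2, and the L-NAME block is mostly red.

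Each comparison was made with all 56 mice and again without these 2, an alternative chosen after the data had been seen. They were left out for the highest Saa1 of their groups, and no control mouse was left out. In comparisons of ponatinib this choice itself lowers Saa1 and the genes that follow it, and the p-values do not allow for that. The gene test was edgeR's quasi-likelihood test with Benjamini-Hochberg adjustment over all genes, and a gene was called at an adjusted p below 0.05. The standard error of the log2 fold change of Saa1 between imatinib and control was 0.912 with the 2 mice in the fit and 0.385 without them, although neither belongs to these groups. Each gene was also tested by an exact two-sided permutation test of mean log2 CPM between 8 treated and 8 control mice, which uses no other group. Its smallest possible p is 0.000155, and its p-values were adjusted over the 60 tests of 10 genes in 6 treated groups. For groups other than ponatinib, leaving out the 2 mice changes no unadjusted permutation p. Only the adjustment changes, through the ponatinib tests, so a pass gained in this way adds nothing about those groups. The share of all genes that pass this test, or that have most mice outside the control range, was not determined.

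By the exact permutation test, Saa1, Saa2, Saa3, Lcn2 and Hpx mRNA were lower with imatinib than in control mice. EdgeR's fit of all mice called 0 of the 10 genes, where 10.2% of all genes were called. Saa1 was at 17.5, 39.7 and 69.0 CPM (lowest, median, highest of 8 mice) with imatinib and at 59.4, 102 and 208 CPM in control mice, and 6 of 8 imatinib mice lay below every control mouse (log2 difference of means -1.49, exact permutation p = 0.000622, adjusted p = 0.0155). Saa2 was at 6.26, 20.7 and 45.3 CPM against 30.0, 62.3 and 93.3 CPM (log2 difference -1.58, exact permutation adjusted p = 0.0168). Lcn2 was at 9.68, 19.6 and 39.5 CPM against 26.8, 73.1 and 141.5 CPM, again with 6 of 8 mice below every control (log2 difference -1.76, exact permutation adjusted p = 0.0155). Saa3 was at 2.51, 4.45 and 22.5 CPM against 8.8, 17.8 and 29.6 CPM (log2 difference -1.53, exact permutation adjusted p = 0.0456). For each of these 4 genes 6 of the 8 imatinib mice lay below every control mouse and the other 2 lay within the control range. Saa4, the constitutive member of its family, did not pass (log2 difference -0.32, exact permutation adjusted p = 0.148).

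Hpx did not overlap between the groups. It was at 3412, 4156 and 4335 CPM with imatinib and at 4567, 5876 and 7809 CPM in control mice, so that all 8 imatinib mice were below every control mouse (log2 difference -0.52, exact permutation adjusted p = 0.00932). Such a separation downwards was seen in 0.433% of the 14314 genes tested. The other plasma scavenger, Hp, was at 2379, 2954 and 4133 CPM against 2201, 3547 and 4581 CPM, and the groups overlapped widely. Orm2 (log2 difference -1.02, exact permutation adjusted p = 0.0739) did not pass the adjustment. Its adjusted p was 0.047 when the 60 permutation tests were readjusted without the 2 ponatinib mice, with its own unadjusted permutation p unchanged at 0.0172. Orm1 and Serpina3n had log2 fold changes of 0.13 and 0.07 in the edgeR fit.

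In that fit of all 56 mice, 0 of the 10 genes were called between imatinib and control, where 10.2% of all genes tested were called, and 3 of the 10 (Saa3, Hpx and Lcn2) had an unadjusted p below 0.05. The DESeq2 test called 3 of the 10, against 1825 of all 14314 genes. Without the 2 ponatinib mice, edgeR called 5 of the 10, all lower, against 10.3% of all genes. These were Saa1 (log2 fold change -1.46 ± 0.385 SE, adjusted p = 0.01), Saa2 (-1.4 ± 0.408, adjusted p = 0.0208), Saa3 (-1.27 ± 0.432, adjusted p = 0.0495), Hpx (-0.53 ± 0.116, adjusted p = 0.00129) and Lcn2 (-1.82 ± 0.541, adjusted p = 0.0225) by edgeR's test. The fold changes themselves were nearly identical in both fits. With all mice, leaving out imatinib mouse 2 let Saa3 be called (-1.79, edgeR adjusted p = 0.0151). Summed Kupffer cell and macrophage markers were lower with imatinib, at 421, 629 and 883 CPM against 749, 1068 and 1520 CPM, with 2 of the 8 genes called lower, and their part in the levels of Saa3 and Lcn2 was not tested. Reads that fell outside annotated genes made up a median of 9.80% with imatinib and 7.85% in control mice. With that percentage as a covariate in the fit of all mice 0 of the 10 genes were called. The fit of all mice without it also called 0, so the covariate could not show a loss of calls. Over all genes, calls fell from 1457 of 14314 without the covariate to 630 of 15792 with it.

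**Figure D4:**
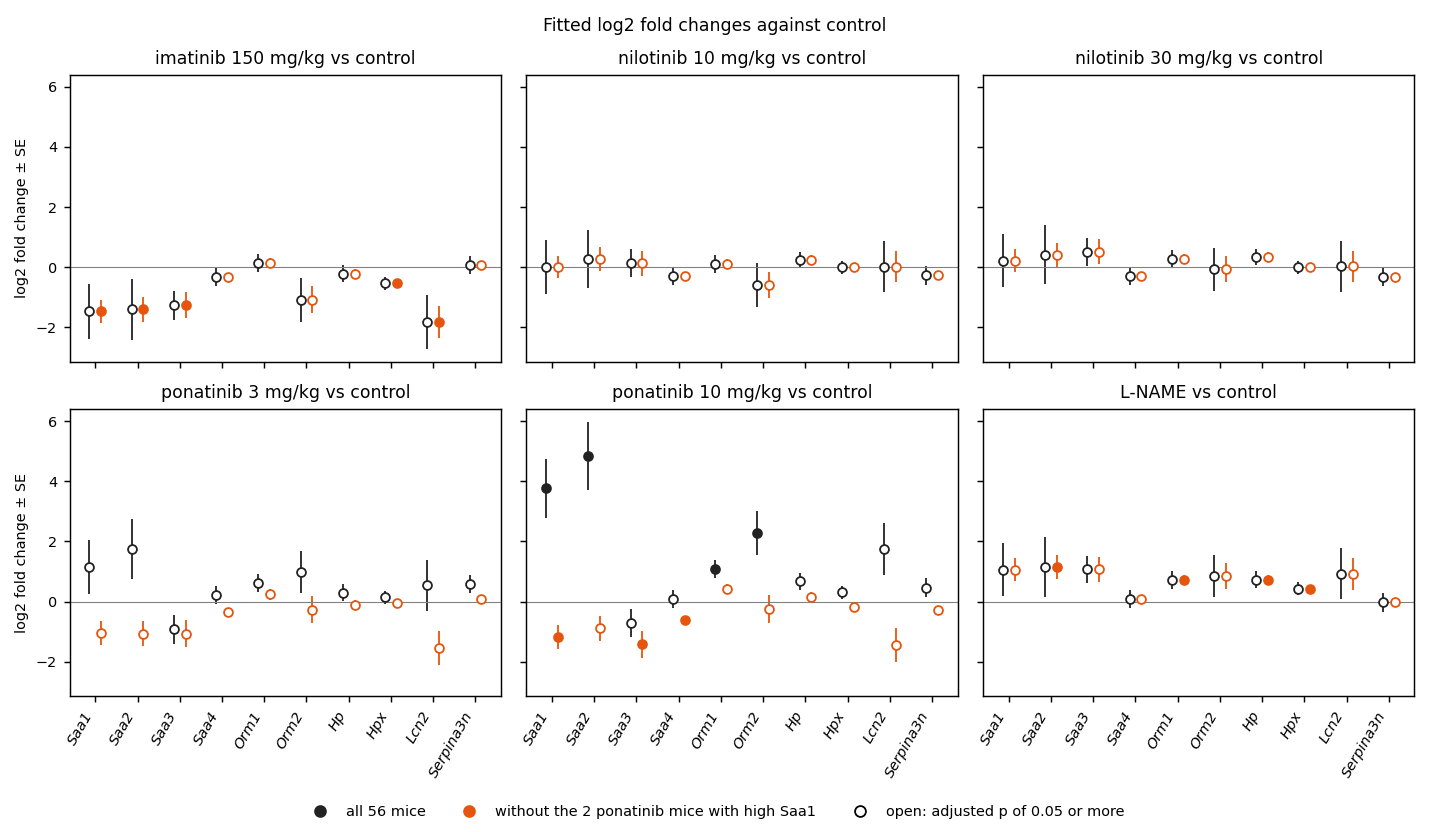
Log2 fold changes against control in edgeR's fit (points, bars ± 1 SE) for the 10 genes in the 6 treated groups, with all 56 mice in black and without the 2 ponatinib mice with high Saa1 in orange. Filled points have an adjusted p below 0.05. With ponatinib 10 mg/kg the black points of Saa1, Saa2, Orm1 and Orm2 are filled and above 0, whereas the orange points of Saa1, Saa3 and Saa4 are filled and below 0.

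With ponatinib 10 mg/kg, the direction of the result depended on mouse 2 of that group. With all mice, 4 of the 10 genes were called higher than control, against 12.8% of all genes called in either direction. They were Saa2 (log2 fold change 4.84 ± 1.13 SE, adjusted p = 0.00266), Saa1 (3.77 ± 0.984, adjusted p = 0.00715), Orm1 (1.08 ± 0.3, adjusted p = 0.0117) and Orm2 (2.27 ± 0.735, adjusted p = 0.0319) by edgeR's quasi-likelihood test. Without mouse 2 alone these values became -0.88, -1.17, 0.41 and -0.24, with edgeR adjusted p of 0.449, 0.212, 0.243 and 0.846. The call of Orm2 was also lost without control mouse 1, 2, 5, 6, 7 or 8, at edgeR adjusted p of 0.0513 to 0.0617 and log2 fold changes of 2.17 to 2.25. Hp, at 0.67 with all mice, passed the test when mouse 4 was left out (0.79, edgeR adjusted p = 0.04). The exact permutation test passed 0 of the 10 genes with all 8 mice, and the log2 difference of means was -0.34 for Saa1 and 0.0056 for Saa2 (exact permutation adjusted p = 1.0 for both).

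Without the 2 mice with high Saa1, 3 of the 10 genes were called lower with ponatinib 10 mg/kg and 0 higher, against 13.5% of all genes. Because only the ponatinib groups lost their highest mouse, these lower values depend in part on that choice, and the p-values below do not allow for it. Saa4 fell by 0.60 on the log2 scale (SE 0.125, edgeR adjusted p = 0.00044), and its 7 remaining mice, at 104, 121 and 148 CPM (lowest, median, highest), were all below the lowest control mouse at 156 CPM. Of all genes tested, 0.859% were separated downwards in this way. Saa3 fell by 1.41 (SE 0.454, edgeR adjusted p = 0.0292) and was at 0, 7.38 and 11.4 CPM, against 8.8 to 29.6 CPM in control mice. The 0 was that of mouse 4, whose 7743412 gene reads allow a level of up to 0.408 CPM at a limit of 3 reads. Saa1 fell by 1.17 (SE 0.398, edgeR adjusted p = 0.0409), with the 7 mice at 9.94, 45.4 and 110.6 CPM. By the exact permutation test of 7 against 8 mice, Saa4 (adjusted p = 0.00466), Saa3 (0.0133), Saa1 (0.0249) and Lcn2 (0.0295) passed after adjustment and Saa2 (0.0544) did not. In edgeR's test Saa2 (-0.88, edgeR adjusted p = 0.165) and Lcn2 (-1.44, edgeR adjusted p = 0.0772) did not pass, and Orm1 stayed at 0.41 above control (edgeR adjusted p = 0.102).

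At the low dose of ponatinib the edgeR test called no member. With all mice, 0 of the 10 genes were called between ponatinib 3 mg/kg and control, where 0.00699% of all genes were called, and Orm1 alone had an unadjusted edgeR p below 0.05 (log2 fold change 0.62, unadjusted p = 0.0442). Without the 2 mice, again 0 of the 10 were called, against 0.0% of all genes, and Saa1 was at -1.04 ± 0.397 SE, Saa2 at -1.06 ± 0.421, Saa3 at -1.06 ± 0.448, Saa4 at -0.35 ± 0.124 and Lcn2 at -1.55 ± 0.56 on the log2 scale, each with an unadjusted edgeR p below 0.05. The exact permutation test without mouse 2 passed these 5 genes, with adjusted p of 0.0135 for Saa4, 0.0249 for Saa1, Saa2 and Lcn2, and 0.0295 for Saa3, in 7 against 8 mice. These p-values do not allow for the choice of the mouse left out. Saa1 of the 7 mice was at 32.4, 49.2 and 84.8 CPM, with 4 of them below every control mouse.

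L-NAME was accompanied by higher levels of haptoglobin, haemopexin, orosomucoid 1 and Saa3 mRNA. Hp was at 4221, 5768 and 7781 CPM (lowest, median, highest) with L-NAME and at 2201, 3547 and 4581 CPM in control mice, and 6 of 8 L-NAME mice lay above every control mouse (log2 difference 0.73, exact permutation adjusted p = 0.0168). Saa3 was at 20.7, 32.0 and 59.4 CPM against 8.8, 17.8 and 29.6 CPM (log2 difference 1.09, exact permutation adjusted p = 0.0202). Orm1 was at 458, 776 and 916 CPM against 334, 381 and 852 CPM (log2 difference 0.76, exact permutation adjusted p = 0.0333). Hpx was at 6226, 7382 and 10110 CPM against 4567, 5876 and 7809 CPM (log2 difference 0.42, exact permutation adjusted p = 0.0456). Saa2 (1.05, adjusted p = 0.0569) and Saa1 (0.97, adjusted p = 0.0827) did not pass the exact permutation test after adjustment. With the tests readjusted without the 2 ponatinib mice, Saa2 passed (exact permutation adjusted p = 0.0299), with its own unadjusted permutation p unchanged at 0.00948.

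In edgeR's fit of all mice 0 of the 10 genes were called between L-NAME and control, against 11.7% of all genes. Saa3, Orm1 and Hp had an unadjusted edgeR p below 0.05. DESeq2 called 2 of the 10, against 2105 of all 14314 genes. Leaving out control mouse 3, the control mouse with the highest Orm1, let Orm1 be called (0.93, edgeR adjusted p = 0.0343). Without the 2 ponatinib mice, 4 of the 10 were called, all higher, against 11.9% of all genes. They were Hp (log2 fold change 0.72 ± 0.162 SE, adjusted p = 0.00166), Orm1 (0.73 ± 0.167, adjusted p = 0.00217), Hpx (0.43 ± 0.116, adjusted p = 0.00715) and Saa2 (1.15 ± 0.397, adjusted p = 0.0498) by edgeR's test. Saa4 (0.09) and Serpina3n (-0.03) had small fold changes. Summed neutrophil markers were 10.9, 24.0 and 43.8 CPM with L-NAME and 5.91, 11.2 and 15.2 CPM in control mice, and reads that fell outside annotated genes made up a median of 10.7% with L-NAME and 7.85% in control mice. The part of these markers and reads in the levels of the 10 genes was not tested. A fit of all mice with the share of such reads as a covariate called 0 of the 10 genes for L-NAME. The fit without the covariate also called 0, so it could not show a loss of calls. Over all genes, calls for L-NAME fell from 1675 of 14314 without the covariate to 235 of 15792 with it.

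With nilotinib, edgeR's test called no member at either dose. Between nilotinib 10 mg/kg and control 0 of the 10 genes were called with all mice, against 1.47% of all genes, and 0 without the 2 ponatinib mice, against 1.5%. At 30 mg/kg the count was again 0 in both fits, against 5.71% and 5.92% of all genes. With all mice, 0 of the 10 genes had an unadjusted edgeR p below 0.05 at either dose. DESeq2 called 0 as well, against 521 and 1224 of all 14314 genes at 10 and 30 mg/kg. Saa1 was at 43.9, 114 and 172 CPM at 10 mg/kg and at 54.9, 112 and 301 CPM at 30 mg/kg, both of which overlapped the control range of 59.4 to 208 CPM. Its log2 fold change was 0.01 (95% confidence interval -0.74 to 0.76 without the 2 mice) at 10 mg/kg and 0.22 (-0.54 to 0.97) at 30 mg/kg. Hpx was within 0.01 of control on the log2 scale at both doses, with intervals of -0.22 to 0.24 and -0.23 to 0.23 without the 2 mice. Saa4 was lower than control by 0.29 at both doses in mean log2 CPM, with exact permutation adjusted p of 0.0692 at each. With the 60 tests readjusted without the 2 ponatinib mice, Saa4 passed at both doses (exact permutation adjusted p = 0.0395), and it was the only member that did. The unadjusted permutation p of Saa4 was the same in both settings, at 0.0138 and 0.0134. Only the ponatinib tests that share the adjustment had changed.

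The main test called no member between the doses of a drug. Between ponatinib 10 and 3 mg/kg, 0 of the 10 genes were called with all mice, against 1.38% of all genes, where Saa1 and Saa2 had an unadjusted edgeR p below 0.01, and 0 without the 2 mice, against 1.75%. The DESeq2 test called 2 of the 10 genes lower at 10 mg/kg, against 441 of all 14314 genes in either direction. This contrast turned with the mice left in. Without mouse 2 of the 10 mg/kg group, Saa1 was at -2.31 and Saa2 at -2.64 (edgeR adjusted p = 0.0355 and 0.0344), and Saa4 (-0.83) and Serpina3n (-0.88) were called lower as well. Without mouse 2 of the 3 mg/kg group, Saa1 was at 4.8, Saa2 at 5.9 and Lcn2 at 3.29 (edgeR adjusted p = 0.00867, 0.00645 and 0.0394). Without both, Saa1 was at -0.14 with a 95% confidence interval of -0.95 to 0.68. Between nilotinib 30 and 10 mg/kg, 0 of the 10 genes and 0.0% of all genes were called in either fit, and 0 of the 10 had an unadjusted p below 0.05.

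Ponatinib 10 mg/kg was compared with nilotinib at the same 10 mg/kg, and with nilotinib 30 mg/kg and imatinib 150 mg/kg, where the doses differ and only the regimens given are compared. With all mice, edgeR called 3 of the 10 genes higher than with nilotinib 10 mg/kg (Saa1, Saa2 and Orm2), against 1.94% of all genes, 2 higher than with nilotinib 30 mg/kg (Saa1 and Saa2), against 1.65%, and 5 higher than with imatinib (Saa1, Saa2, Orm2, Hpx and Lcn2), against 0.957%. Without the 2 mice, Saa3 was called lower than with nilotinib 10 mg/kg (-1.55, edgeR adjusted p = 0.0491), against 2.82% of all genes called, and lower than with nilotinib 30 mg/kg (-1.93, edgeR adjusted p = 0.0154), against 2.1%. Against imatinib 0 of the 10 genes were then called, where 0.893% of all genes were called, and Saa1 was at 0.29 with a 95% confidence interval of -0.51 to 1.08 and Hpx at 0.35 with an interval of 0.11 to 0.58. Every such call with all mice was lost without mouse 2 of the ponatinib 10 mg/kg group alone, and several were also lost when 1 imatinib or nilotinib mouse was left out, where without mouse 2 Saa1 was at -1.18, -1.39 and 0.29 against nilotinib 10, nilotinib 30 and imatinib.

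Ordered by group median over all 8 mice, imatinib had the lowest and L-NAME the highest level for Saa1, Saa2, Saa3, Orm2, Hp, Hpx and Lcn2. The ratio of the highest to the lowest median was 7.18 for Saa3, 6.93 for Lcn2, 5.72 for Saa2 and 5.14 for Saa1, and it was 1.29 for Serpina3n, 1.64 for Saa4 and 1.78 for Hpx. For Saa1 the neighbours in this order, imatinib with both ponatinib groups at the low end and control with both nilotinib groups in the middle, overlapped in their ranges. Orm1 had a different order, with control lowest at a median of 381 CPM.

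Most of the genes also rose and fell together from mouse to mouse with the groups pooled, though not in every single group. After subtraction of each group's mean, log2 levels over the 54 mice without the 2 outlying ones correlated with those of Saa1 at a Pearson r of 0.925 for Saa2, 0.851 for Lcn2, 0.764 for Orm2, 0.692 for Hpx, 0.644 for Hp, 0.624 for Saa3 and 0.554 for Orm1. For these 7 genes the permutation p of r was 1e-05, the smallest that 100000 resamples can give, and Spearman's rho was 0.922, 0.824, 0.744, 0.667, 0.584, 0.561 and 0.438 (permutation p of at most 0.00113). The relation was weaker for Serpina3n (r = 0.363, rho = 0.349, adjusted permutation p = 0.00825 and 0.0117) and for Saa4 (r = 0.265, rho = 0.289, adjusted permutation p = 0.0518 and 0.034), over the 9 relations computed. With all 56 mice r was 0.981 for Saa2, 0.833 for Serpina3n and 0.814 for Saa4, so that the values of the last pair rest on the 2 mice. Leaving out the 2 mice farthest from the median of Saa1 among the 54 gave r of 0.908 for Saa2, 0.814 for Lcn2, 0.731 for Orm2, 0.643 for Hpx, 0.554 for Hp, 0.529 for Saa3, 0.453 for Orm1, 0.4 for Serpina3n and 0.283 for Saa4.

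**Figure D5:**
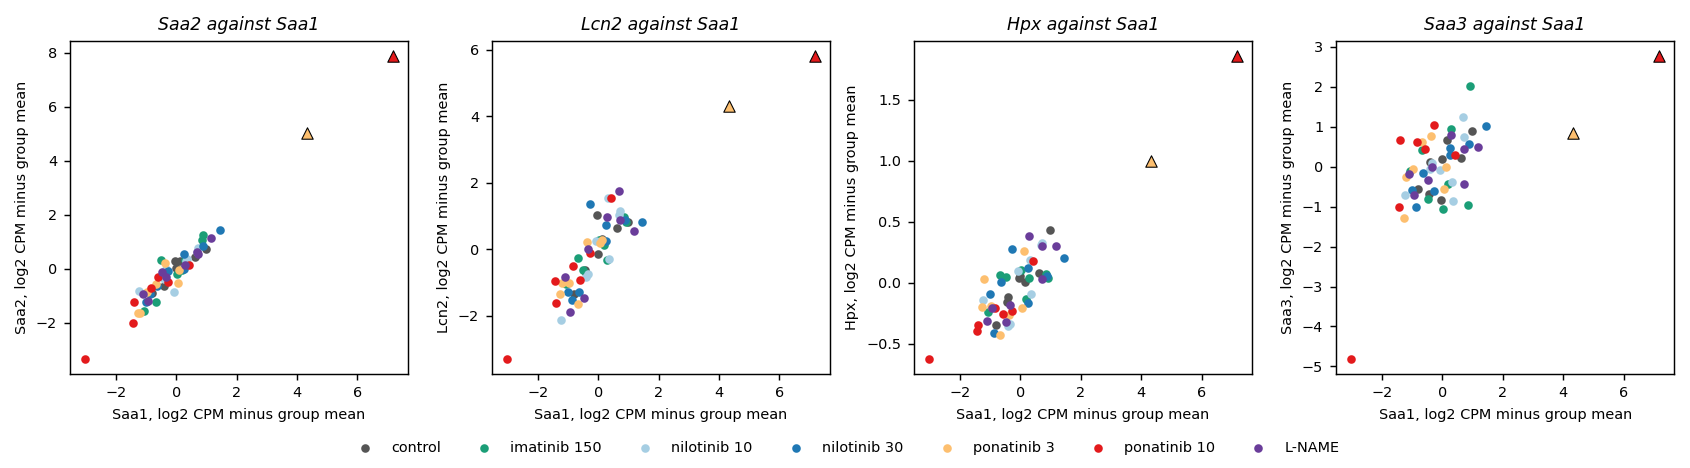
Level of Saa2, Lcn2, Hpx and Saa3 against that of Saa1 in 56 mice, each as log2 CPM minus the mean of the mouse's group, with groups by colour and triangles for mouse 2 of each ponatinib group. Saa2 follows Saa1 most closely (r = 0.925 over the 54 other mice) and Saa3 least of the 4 genes drawn (r = 0.624).

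Within single groups of 8 mice r ranged from 0.843 to 0.996 for Saa2 and from 0.749 to 0.976 for Lcn2. It ranged from -0.126 to 0.96 for Saa4, where the highest values were those of the ponatinib groups with mouse 2 included. For Serpina3n r ranged from 0.0106 to 0.961, and the highest value was that of ponatinib 3 mg/kg with mouse 2 included. Nilotinib 10 mg/kg came next for this gene at 0.927, above the 0.911 of the ponatinib 10 mg/kg mice. Without mouse 2, r of Serpina3n was -0.258 at ponatinib 10 mg/kg and 0.413 at 3 mg/kg. For Orm1 r ranged from -0.137 with nilotinib 10 mg/kg to 0.988 with ponatinib 10 mg/kg, mouse 2 included. Within control mice r was 0.948 for Hpx and 0.822 for Hp, and within imatinib mice it was 0.472 and -0.0412. Control mouse 3 was the highest control mouse for 9 of the 10 genes, all but Lcn2, with Orm2 at 130.2 CPM against at most 40.0 CPM in the other 7.

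The genes most like the 10 were sought among all other genes tested, by the Pearson r over 56 mice between a gene's level and the members' mean standardized level, both minus the group means. The 10 highest were Serpina10 (0.894), Prg4 (0.88), Lrg1 (0.879), Apcs (0.847), Cpb2 (0.828), Dap (0.826), Tifa (0.813), Cxcl1 (0.807), Clu (0.801) and Orm3 (0.797). Without the 2 mice, over 54, they were Lrg1 (0.678), Prg4 (0.645), Cyb561 (0.607), Serpina10 (0.574), Orm3 (0.574), Nfkbiz (0.566), Apcs (0.553), Tifa (0.553), Lbp (0.538) and Prtn3 (0.534), and 6 genes were in both lists. These values describe likeness over mice that share their groups and libraries.

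Other genes of the response were counted in the same fits, all against the same 8 control mice. Control mice had 7.55 to 8.67% of reads outside genes, below every mouse of the nilotinib, ponatinib 10 mg/kg and L-NAME groups. With that share as a covariate, calls over all genes fell from 1839 to 346 for ponatinib 10 mg/kg. They fell from 210 to 15 and from 818 to 94 for nilotinib 10 and 30 mg/kg. The list genes were not tested with that covariate. Of 20 other positive acute-phase genes tested, 0 were called higher and 1 lower with imatinib, nilotinib 10 mg/kg and nilotinib 30 mg/kg, which in each case was C3, the central complement component (log2 fold changes -0.7, -0.72 and -0.8, edgeR adjusted p = 0.0111, 0.0359 and 0.0066). Of all genes, 10.2%, 1.47% and 5.71% were called in these comparisons. With ponatinib 10 mg/kg 4 were called higher (Hamp2 1.59, Hamp 2.2, Apcs 1.37 and Mt1 1.94) and C3 lower (-0.54), where 12.8% of all genes were called, and without the 2 mice 2 were higher and 3 lower. With L-NAME, Mt1, a metallothionein gene, was called higher (1.78) and C3 lower (-0.57), where 11.7% of all genes were called. The median log2 fold change of the list was -0.19 with imatinib and 0.21 with both ponatinib 10 mg/kg and L-NAME, where that of all genes was -0.02, -0.01 and 0.02.

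Negative acute-phase genes, whose products fall in plasma during inflammation, were called higher rather than lower in the groups with most calls. Of 12 tested, 5 were higher and 2 lower with imatinib, 6 higher and 0 lower with ponatinib 10 mg/kg, and 6 higher and 2 lower with L-NAME, where 10.2%, 12.8% and 11.7% of all genes were called in either direction. Apoa2, an apolipoprotein of high-density lipoprotein, was called higher in all 3 of these groups (log2 fold changes 0.99, 0.99 and 0.85, edgeR adjusted p = 4.39e-05, 4.45e-05 and 0.000317), as were Rbp4, Fetub, Apoa1 and Ttr. Trf was called higher with ponatinib 10 mg/kg (0.92) and L-NAME (0.75). These counts were the same without the 2 mice. Of the 11 genes of interleukin-6 and JAK-STAT signalling tested, 4 were called lower with imatinib (Jak1 -0.51, Ptpn11 -0.54, Il6st -0.41 and Stat3 -0.51), 1 with ponatinib 10 mg/kg and nilotinib 30 mg/kg (Ptpn11) and 2 with L-NAME (Ptpn11 and Jak1), and 0 were called higher. These counts stand beside the same shares of all genes, with 5.71% for nilotinib 30 mg/kg. From the interleukin-1 and TNF list of 10 genes, Il1a was called lower with imatinib and ponatinib 10 mg/kg, with Tnfrsf1b lower in both and Irak4 in the former. Of all genes, 10.2% and 12.8% were called there. Among 8 genes that take up haem and haemoglobin complexes or handle the iron released, Lrp1, the receptor for haemopexin with haem, was called lower with imatinib (-0.69), nilotinib 10 and 30 mg/kg (-0.55 and -0.66), ponatinib 10 mg/kg (-0.51) and L-NAME (-0.52), all by edgeR's test with all mice. Of all genes, 10.2%, 1.47%, 5.71%, 12.8% and 11.7% were called in these comparisons. The other genes of this list are not described here, so Lrp1 does not stand for the list. Of the 8 transcription factor genes, Creb3l3 was called higher with imatinib (0.46) and Hnf4a lower with nilotinib 30 mg/kg (-0.53) and L-NAME (-0.47). These stand beside 10.2%, 5.71% and 11.7% of all genes.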

How the data were processed

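Liver mRNA of 56 mice was sequenced, and the authors aligned the reads with TopHat2 2.0.14 and Bowtie2 2.1.0 to GRCm38, with SAMtools 0.1.18 and HTSeq 0.6.1p1, per the submitters' processing notes. The deposited values are raw read counts per gene, without normalization, and reads that aligned to several places were not counted. The strand setting is not given in the sources used here.

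Counts were analysed here with edgeR 4.0.16 in R 4.3.3. Low genes were removed with filterByExpr, which left 14314 genes, libraries were scaled by TMM, and all 56 mice entered 1 robust quasi-likelihood fit with a term per group. P-values were adjusted over all genes by Benjamini-Hochberg, with a threshold of 0.05. Log2 CPM used a prior count of 2. Each member was also compared by an exact permutation test, and 9 relations to Saa1 by 100000 permutations. Alternatives were DESeq2 1.42.0, voom of limma 3.58.1, other scaling, filters, samples and a covariate, and single mice left out. The fit was tested on simulated data. Reads outside genes (7.55 to 16.8% per mouse) were kept out of library sizes. The members and gene lists were chosen with earlier results of these data known. The genes named are the 10 members, from each other list up to 5 genes per comparison with the lowest adjusted p among those called, and the 10 genes most like the members by r. The genes singled out in the 2 ponatinib mice were chosen after their values were seen.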

Additional observations from a re-analysis of the deposited data

Results flagged for a closer look

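A mouse was picked out where its gap to the nearest mouse of its group, on the log2 scale, exceeded Dixon's critical share of the group's range for 8 mice. Of the 70 sets of 8 mice (10 genes in 7 groups) 18 were picked out, where chance gives about 1 in 20.

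Of these, 6 were mouse 2 of the ponatinib 10 mg/kg group, with Saa1 at 11884 CPM, Saa2 at 13377, Saa4 at 727, Orm1 at 3356, Hpx at 22079 and Serpina3n at 2142 CPM. Another 7 were mouse 2 of the ponatinib 3 mg/kg group, with Saa1 at 1591 CPM, Saa2 at 1404, Saa4 at 726, Orm1 at 1771, Hp at 11834, Lcn2 at 724 and Serpina3n at 1835 CPM.

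Control mouse 3 was picked out 3 times, with Saa4 at 284 CPM, Orm1 at 852 CPM and Orm2 at 130.2 CPM. At nilotinib 30 mg/kg, mouse 7 was low for Saa4 at 108 CPM and mouse 6 was low for Hp at 2821 CPM.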

How the results depend on the processing

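Without the 2 ponatinib mice with high Saa1, left out after the data had been seen, edgeR called 5 members for imatinib, 4 for L-NAME and 3, now lower, for ponatinib 10 mg/kg against control. Ponatinib 10 mg/kg then had 1 lower member against nilotinib 10 mg/kg, 1 lower against nilotinib 30 mg/kg and 0 against imatinib. The exact permutation tests called rose from 9 to 22 (5 higher, 17 lower). Those gained outside the ponatinib groups came only from the adjustment, as their unadjusted p did not change. With only the 2 groups compared in the fit, the counts against control were 4 for imatinib, 6 for L-NAME and 0 for ponatinib 10 mg/kg, which had 0 against each other drug. The counts over all genes against control were 1712 of 12651, 2429 of 12866 and 1671 of 12681. Voom gave 1, 4 and 1 against control, then 0 against nilotinib 10 mg/kg and imatinib and 1 lower against nilotinib 30 mg/kg. Of all 14314 genes it called 3327, 3737 and 3743 against control, then 331, 131 and 762. DESeq2 gave 3 for imatinib, 2 for L-NAME, 2 lower for ponatinib 10 against 3 mg/kg and 2 for ponatinib 10 mg/kg against imatinib. Of all 14314 genes it called 1825, 2105, 441 and 224 in these comparisons. Without a filter, and without the L-NAME mice, there were 3 against imatinib and 1 against nilotinib 30 mg/kg, where the covariate gave 0. The counts over all genes were 106 and 159 of 24040 without a filter and 120 and 199 of 14090 without the L-NAME mice. With the covariate the count against nilotinib 30 mg/kg was 225 of 15792. At an unadjusted p below 0.01 the counts were 2 between the ponatinib doses and 4 against nilotinib 30 mg/kg, beside 817 and 786 of all 14314 genes. The cause of these changes was not tested.

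For ponatinib 10 mg/kg against control, Saa1 turned to -1.17 without the 2 mice, -0.33 with voom and -1.03 with DESeq2, Saa2 to -0.88, -0.023 and -0.76, Saa4 to -0.60 without the mice and -0.54 with DESeq2, and Orm2 to -0.24 without the mice (log2). In the same order of settings, Saa1 turned to -1.18, -0.38 and -1.07 and Saa2 to -1.16, -0.23 and -1.06 against nilotinib 10 mg/kg, and Saa1 to -1.39, -0.65 and -1.26 and Saa2 to -1.30, -0.44 and -1.19 against nilotinib 30 mg/kg. DESeq2 had replaced the counts of Saa1 and Saa2 in both mice, and those of Saa4 and Serpina3n in the 10 mg/kg mouse. Its values for Saa1 and Saa4 against control were calls in the lower direction (DESeq2 adjusted p = 0.0303 and 0.0412). Of 980 member fold changes under settings other than single mice left out, 879 kept their side of the threshold without a called change of direction. In 69 fold changes the sign changed while the gene was called in neither fit, and these are among the 879.

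With single mice left out, the count was 0 to 1 for imatinib and for L-NAME, 1 to 5 for ponatinib 10 mg/kg, 0 for ponatinib 3 mg/kg and both nilotinib doses, 0 to 4 between ponatinib doses, and 0 to 4, 0 to 5 and 0 to 2 for ponatinib 10 mg/kg against nilotinib 10 mg/kg, imatinib and nilotinib 30 mg/kg. Log2 fold changes ranged from -1.17 to 3.96 for Saa1, -0.88 to 5.03 for Saa2 and -0.24 to 2.71 for Orm2 against control, from -2.31 to 4.80 and -2.64 to 5.90 for Saa1 and Saa2 between ponatinib doses, from -1.18 to 3.95 and -1.16 to 4.75 against nilotinib 10 mg/kg, and from -1.39 to 3.85 and -1.30 to 4.71 against nilotinib 30 mg/kg. No paired analysis was possible because the groups share no replicate numbers in the labels.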
